A study of Eucalyptus camaldulensis with 12 samples.

Results

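The transcripts described here were the steady ones among the abundant transcripts of river red gum (Eucalyptus camaldulensis) leaves. Each had at least 100 CPM, the read count scaled to a common library total, in each of 12 libraries, and its highest CPM was at most 2 times its lowest. Of 41547 predicted transcripts, 662 reached 100 CPM in every library, and 214 of these stayed within 2-fold, which is 32.3% of the abundant and 0.515% of all transcripts. They were chosen by the CPM of all 12 libraries, so their levels, spreads and differences are given as a description, without a test.

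The experiment followed seedlings of the natural populations Katherine, Mt Isa and Petford, raised in pots in a glasshouse, through a water stress treatment. S1 is leaf RNA from 10 seedlings per population after 2 months at 30% of field capacity, and C1 is leaf RNA from 5 seedlings per population watered to field capacity over the same time. S0 and C0 are leaves of those same 10 and 5 seedlings, taken before the stress began, so neither of these groups had been treated. Each group had 3 libraries, each a bulk of the seedlings of a single population, and the populations served as replicates. The source description and the title disagree for Mt Isa C1 and Mt Isa S0, which were placed by title and group label. Values of 3 libraries are always given in the order Katherine, Mt Isa, Petford.

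Transcripts that stay level across conditions are used as internal references when other mRNAs are measured by quantitative PCR. Those coding for the protein synthesis apparatus are often among them: ribosomal proteins build the ribosome, initiation factors bring it to the mRNA, and elongation factors carry it along the message. In leaves under water deficit, photosynthesis genes are known to be lowered and genes for heat shock proteins and protective proteins to be raised, while the genes of basic cell upkeep are commonly taken as level.

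The usable library totals ranged from 2228850 to 6614000 reads in S1, 1679845 to 2845874 in C1, 1650330 to 5866208 in S0 and 1817461 to 3131368 in C0. The Petford S0 library stood apart. It was the lowest library for 85 of the 214 transcripts and the highest for none, its 10 most abundant transcripts held 13.2% of its reads, and without it 276 transcripts would have met both limits. The 448 abundant transcripts that varied by more than 2-fold took 22.8 to 23.7% of the reads in S1, 22.0 to 25.4% in C1, 33.8 to 39.9% in S0 and 34.9 to 35.1% in C0. Because CPM is a share of the library, those shares bear on every CPM given here, and each difference below was also computed with the scaling factors of edgeR (TMM) and DESeq2. Relative to the column sum, TMM and DESeq2 factors moved S1 minus C1 by 0.25 and 0.14 on the log2 scale, C1 minus C0 by -0.27 and -0.24, S1 minus S0 by -0.19 and -0.26, and S0 minus C0 by 0.17 and 0.16, the same for every transcript. A separation in the direction of such a shift is therefore kept more easily under the other scalings, and one against it is lost more easily. Orders of libraries given below are by column sum unless a scaling is named. The part of those shares in the differences was not tested. Leaf identity markers, genes of Rubisco and the light-harvesting complexes, had reads for 8 of 8 genes in every group. Summed, they held 0.891 to 1.02% of the reads in S1, 2.14 to 3.08% in C1, 4.67 to 8.22% in S0 and 5.12 to 6.52% in C0. Xylem and secondary wall markers (5 genes, 1 without a read in C0) held 0.0856 to 0.115% in S1, 0.167 to 0.195% in C1, 0.0766 to 0.0942% in S0 and 0.0626 to 0.0799% in C0. Epidermis and cuticle markers (15 genes) held 0.701 to 1.11% in S1, 0.648 to 0.982% in C1, 0.347 to 0.376% in S0 and 0.282 to 0.372% in C0. In such bulk samples, fewer cells of a type and less RNA per cell cannot be told apart.

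Across the 214 transcripts the ratio of the highest to the lowest CPM ranged from 1.28 to 1.99 with a median of 1.73, and 21 of them stayed within 1.5-fold. The abundant transcripts beyond the limit had a median ratio of 2.94 and reached 46.3. The limit cut through a continuous distribution. Just inside it were scaffold_2:59731938-59742070, scaffold_3:56653926-56654595 and scaffold_7:43926644-43930080 at ratios of 1.99 each, and just outside were scaffold_7:31744693-31758185 at 2.0013, the heat shock protein gene HSP70 (Eucgr.J00025) at 2.0016 and scaffold_8:11074747-11076183 at 2.0025.

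**Figure D1:**
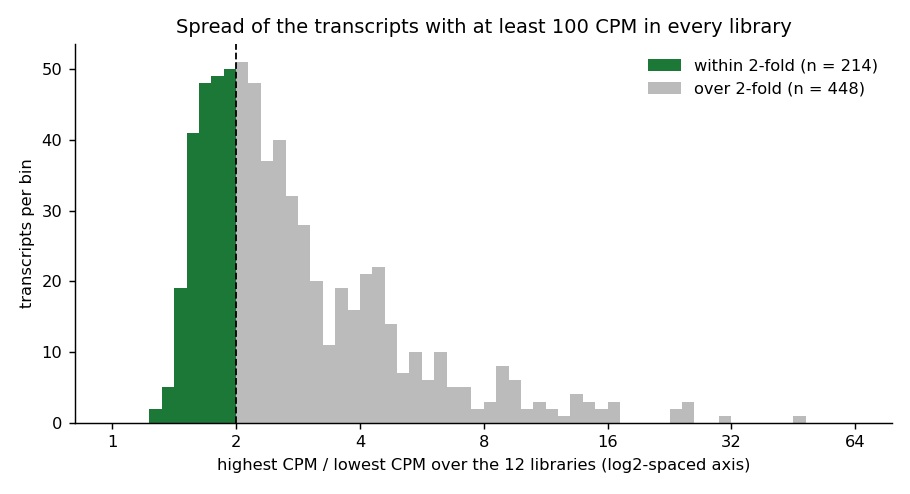
Number of transcripts (y axis) by the ratio of highest to lowest CPM over the 12 libraries (x axis, log2-spaced), for the 662 transcripts with at least 100 CPM in every library. The 214 within 2-fold are green, the 448 beyond it are grey, and the dashed line is the limit of 2, with transcripts on both sides of it and no gap.

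The spread was wider than counting alone gives. The least covered of the 214 transcripts had 170 reads in its lowest library, and the median of these minima was 292.5 reads. Their coefficient of variation over the 12 libraries was 7.65 to 26.7% (median 17.3%), against 4.56% at the median from counting alone, so the observed spread was 1.39 to 13.4 times the counting spread. The 4 group means of a transcript had a median SD of 0.21 on the log2 CPM scale, and the 3 population means had a median SD of 0.10. Group means varied more than population means in 186 of the 214 transcripts. A group mean averaged 3 libraries and a population mean 4, so variation between single libraries alone widens the group means more. The median SD between libraries within a group was 0.17, and the comparison was not tested. For the 448 variable transcripts the median SDs of group and population means were 0.55 and 0.10, and that within a group was 0.19.

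The 214 transcripts were spread over the 11 numbered large scaffolds, with 31 on scaffold 8, 27 on scaffold 7 and 24 each on scaffolds 6 and 10, and 7 on scaffold 5. Their genomic span had a median of 4020 bases, against 3889 bases for the variable abundant transcripts. Of the 214, 20 overlapped another predicted transcript, none of them named, and since the counting is not stated to use strand, reads of such pairs cannot be told apart. Merging the overlaps left 211 loci. CPM is not corrected for length, so levels are compared within a gene only.

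Names could be given to 45 of the 214 transcripts (44 genes), each through the position of a SNP that the study assigned to an E. grandis gene and its Arabidopsis homolog. These were SNPs the study reported with differential allelic expression between S0 and S1. It described such SNPs as favouring well-covered genes and alleles that differed strongly in expression. The named transcripts are therefore not an even sample of the 214. The SNP positions used here covered no part of scaffolds 7, 8 and 9, which carry 78 of the transcripts, and ended before 20 more on scaffold 6. The remaining 169 are known here by their coordinates on the E. grandis draft scaffolds alone. Of the 219 abundant transcripts with a name, 20.5% were within 2-fold. This share depends on where names came from: 45 within 2-fold and 159 beyond it were named by a SNP, and 15, all beyond it, by coordinates in a table the study restricted to differentially expressed transcripts. Shortened copies of both tables were used here. Gene roles below come from the Arabidopsis homologs.

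Protein synthesis was the function most represented by name. Of 19 abundant transcripts in the list of translation genes, 15 were within 2-fold, with a median ratio of 1.83 over all 19. By contrast 0 of 31 abundant photosynthesis and Calvin cycle transcripts were within 2-fold, and their ratios ran from 2.97 to 30.2. The remaining lists held 4 of 19 abundant transcripts for ubiquitin and proteolysis, 5 of 10 for kinases and phosphatases, 3 of 12 for carbohydrate and energy metabolism, 1 of 11 for chaperones, 1 of 8 for one-carbon and amino acid metabolism and 1 of 5 for aquaporins. None of 12 antioxidant, 4 proton pump, 4 RNA-binding, 3 vesicle traffic, 2 cytoskeleton, 1 cell wall, 5 epidermis and cuticle and 6 leaf identity transcripts was among them, and 1 of 2 xylem transcripts was, XBCP3, by its name. These shares describe the choice itself and the source of the names, and were not tested. Nor were the lists separate, since the 6 leaf identity transcripts were all among the 31 for photosynthesis. XBCP3 was likewise 1 of the 4 for ubiquitin and proteolysis. The 2 cytoskeleton transcripts were both named by coordinates in the table restricted to differentially expressed transcripts, and 0 by a SNP. Named by a SNP were 29 of the photosynthesis, 9 of the kinase, 4 of the aquaporin and 3 of the proton pump transcripts. In the other lists of this paragraph every abundant transcript was named by a SNP. The translation list gave 20, 21 and 18 transcripts with TMM factors, with DESeq2 factors and without the Petford S0 library, and the photosynthesis list gave 0 each time. The chaperone list depended most on the scaling, with 8 transcripts within the limits with TMM factors and 8 with DESeq2 factors, against 1 by column sum. Antioxidant, vesicle traffic and RNA-binding genes then had 1 each with either, and epidermis and cuticle genes 1 with TMM and 2 with DESeq2 factors, while the aquaporin and xylem lists had 0. One of the 15, ZLL (Eucgr.K02304), entered by its annotation as an initiation factor but is known as an ARGONAUTE protein. A pair of further ribosomal protein transcripts, Eucgr.B03289 and Eucgr.D02588, were annotated in words the list did not hold. Besides the protein kinases Eucgr.D02312 and Eucgr.B00211, the 5 of the kinase list were RACK1B (Eucgr.B00856) and metabolic kinases. The latter were a putative pyruvate kinase (Eucgr.J00327), also counted under carbohydrate metabolism, and a pfkB-type carbohydrate kinase (Eucgr.A02987).

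**Figure D2:**
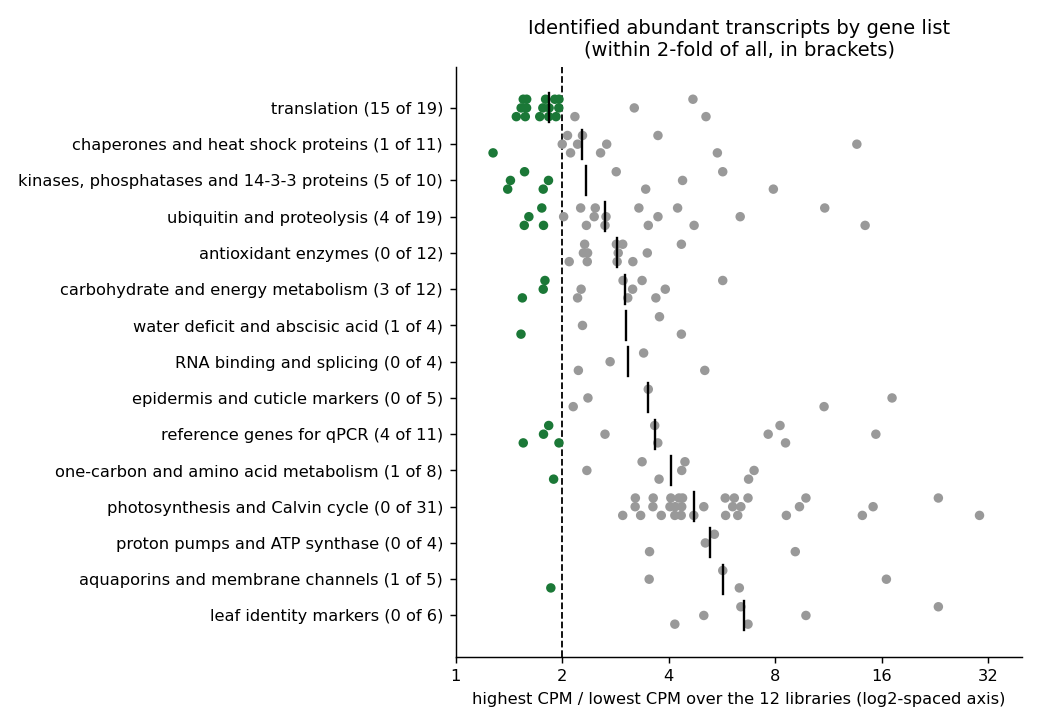
Ratio of highest to lowest CPM over the 12 libraries (x axis, log2-spaced) for each identified abundant transcript, by gene list (y axis). A transcript held by several plotted lists appears in each. Green points are within 2-fold and grey points are beyond it, black bars are medians, the dashed line is the limit of 2, and brackets give the number within 2-fold of all plotted; 15 of 19 translation transcripts lie left of the line and all 31 photosynthesis transcripts lie right of it.

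Elongation factor 1-alpha, which delivers aminoacyl-tRNA to the ribosome, was present as several copies close together on scaffold 10. The transcript scaffold_10:12191070-12193475 (Eucgr.J01112) had 1494, 1359.9 and 1445 CPM in S1, against 1312, 1386 and 1247 CPM in C1, and 962, 1251 and 1027 CPM in S0, against 1182, 1175 and 1215 CPM in C0. Its ratio was 1.55. The S1 and C1 values overlapped, every S1 library was above every S0 and C0 library, Katherine and Petford S0 were the lowest of the 12, and the S1 minus C1 difference was 0.12 ± 0.13 on the log2 scale (SD, n = 3 populations). With TMM and DESeq2 factors every S1 library was above every C1 library, by 0.37 and 0.27, S1 and S0 overlapped, and C1 was below C0 where it was above it by column sum. A second transcript with SNPs of Eucgr.J01112, scaffold_10:12197880-12200954, had 896, 829 and 812 CPM in S1, against 685, 691 and 628 CPM in C1, and 489, 665 and 498 CPM in S0, against 585, 571 and 601 CPM in C0. Here every S1 library was above every library of the other groups, by 0.34 ± 0.07 over C1 and 0.63 ± 0.29 over S0 (log2, SD, n = 3), and S1 stood above C1 and S0 under TMM and DESeq2 scaling as well.

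The neighbouring transcript scaffold_10:12205956-12208849 carried SNPs of both Eucgr.J01112 and Eucgr.J01113, both annotated as elongation factor 1-alpha, and was left without a single name. It had 1531, 1328 and 1580.3 CPM in S1, against 1334, 1449.5 and 1263 CPM in C1, and 1004, 1244 and 1058 CPM in S0, against 1133, 1089.6 and 1176 CPM in C0. Its ratio was 1.57, S1 and C1 overlapped, and all libraries of both were above those of S0 and C0. With either other scaling S1 and S0 overlapped, as did C1 and C0. With TMM factors every S1 library was above every C1 library, by 0.38, and every S0 library above every C0 library, by 0.12. Both of these pairs overlapped with DESeq2 factors. Eucgr.J01121 (scaffold_10:12316581-12319593), also elongation factor 1-alpha, went the other way, with 304, 250.4 and 323 CPM in S1, against 391, 491 and 371 CPM in C1, and 278, 386 and 342 CPM in S0, against 435, 384 and 419 CPM in C0. Every C1 library was above every S1 library, with an S1 minus C1 difference of -0.51 ± 0.41 (log2, SD, n = 3), and under TMM scaling these groups overlapped. Reads from near-identical copies can be placed on either copy, so the split between these transcripts is uncertain.

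LOS1 (Eucgr.F01462, scaffold_6:18830069-18834322), elongation factor 2, which moves the ribosome along the mRNA, had 1280.2, 1137 and 1239 CPM in S1, against 982, 1257 and 942 CPM in C1, and 871, 1076 and 862 CPM in S0, against 1102, 1052 and 1064 CPM in C0. Its ratio was 1.48, with the lowest values in Katherine and Petford S0, and C1 of Mt Isa lay within the S1 range while the other C1 libraries lay below it. With TMM factors every S1 library was above every C1 library, by 0.46. Eucgr.C03418 (scaffold_3:64651252-64654646), a putative initiation factor 4A, the helicase that unwinds mRNA leaders, had 344, 353 and 316 CPM in S1, against 239, 246 and 233 CPM in C1, and 211, 230.3 and 204 CPM in S0, against 275, 236 and 211 CPM in C0. Each S1 library was above all 9 others. The S1 minus C1 difference was 0.50 ± 0.05 and the S1 minus S0 difference 0.65 ± 0.05 (log2, SD, n = 3), and S1 stood above both groups under all 3 scalings. Eucgr.B01418, with an eIF4-gamma/eIF5/eIF2-epsilon domain, had a ratio of 1.76 and an S1 minus C1 difference of 0.08 ± 0.15, overlapping by column sum, and S1 was above C1 with TMM (0.33) and DESeq2 factors (0.22).

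Transcripts annotated as ribosomal proteins or ribosome constituents made up 10 of the 45 named. Of these, 6 belong to the large subunit by name (RPL28C, RPL4A, RPL21, RPL8C, RPL35aC and BBC1) and 3 to the small subunit (RPS2D, RPS3aB and RPS9C). The ratios of the 10 ran from 1.53 to 1.96. RPL28C (Eucgr.J02888, scaffold_10:35984413-35987114) was the steadiest of them, with 180.0, 170.5 and 199 CPM in S1, against 207, 215 and 151 CPM in C1, and 185, 155 and 140.3 CPM in S0, against 203, 149 and 163 CPM in C0, and all 4 of its groups overlapped. By column sum none of the 10 had S1 and C1 apart, and the S1 minus C1 differences had a median of 0.11 (-0.07 to 0.30 on the log2 scale), with 8 of 10 positive. With TMM factors the median was 0.36, with 10 of 10 positive and 4 higher in every S1 library (25.0% of all transcripts), and with DESeq2 factors it was 0.26, with 10 of 10 positive and 3 higher (23.0%). The populations differed in sign by column sum. S1 was above C1 for 10 of 10 ribosomal transcripts in Petford and for 7 of 10 in Katherine, but for 2 of 10 in Mt Isa.

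By column sum the ribosomal transcripts were above their own starting level in the stressed seedlings. S1 minus S0 was positive in 10 of 10, with a median of 0.49 beside 0.25 over all transcripts, and in 7 of them every S1 library was above every S0 library, as in 27.7% of all transcripts. With TMM factors the median was 0.30 with 10 of 10 positive, with DESeq2 factors it was 0.23 with 8 of 10 positive, and 3 stayed apart with either, beside 23.6% and 22.9% of all transcripts. Without the Petford S0 library the median was 0.46, with 10 of 10 positive and 7 apart, beside 32.1%. The largest of these differences was that of RPL8C (Eucgr.J02422), 0.66 ± 0.25, followed by BBC1 (Eucgr.D02588), the homolog of ribosomal protein L13, at 0.65 ± 0.16. In watered seedlings the C1 minus C0 median was 0.14 by column sum, beside 0.31 over all transcripts, with 9 of 10 positive. With TMM and DESeq2 factors it was -0.13 and -0.11, with 1 of 10 positive in each. The direction over time in the watered seedlings thus depended on the scaling, and 9 of the 10 had their lowest library in S0, 6 of them in Petford.

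Genes commonly used as qPCR references were divided between the steady and the variable transcripts. Of 11 abundant transcripts in that list, 4 were within 2-fold: the 2 named Eucgr.J01112, Eucgr.J01121 and the ubiquitin gene UBQ6 (Eucgr.B03309). Beyond the limit were the ubiquitin-conjugating enzyme gene UBC11 (Eucgr.D01776, ratio 2.64), a cyclophilin-type isomerase gene (Eucgr.G01759, 7.65) and the tubulin genes TUA6 (Eucgr.F00470, 8.26) and TUA2 (Eucgr.G01186, 8.56). The cyclophilin-type gene and both tubulin genes were named by coordinates in the table restricted to differentially expressed transcripts. The other 8 of the 11 were named by a SNP. The division thus depends in part on the source of the names. The list also took in, by wording, the FKBP-type isomerase gene ROF1 (Eucgr.K02110, 3.65), the non-phosphorylating dehydrogenase gene ALDH11A3 (Eucgr.C02594, 3.73) and GAPB (Eucgr.F01793, 15.4), a chloroplast enzyme of the Calvin cycle, which are not the usual references. UBQ6, which supplies ubiquitin for protein tagging, had 174, 152 and 152 CPM in S1, against 252, 261 and 211 CPM in C1, and 189, 244 and 174 CPM in S0, against 269, 213 and 217 CPM in C0. Its S1 values were the lowest 3 of the 12 libraries, at -0.60 ± 0.16 relative to C1 (log2, SD, n = 3), and S1 was below C1 under all 3 scalings.

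CPN60A (Eucgr.B02532, scaffold_2:47409689-47413320) had the smallest ratio of all 214 transcripts, 1.28. It codes for the alpha subunit of the chloroplast chaperonin, which folds Rubisco and other stromal proteins. It had 835, 918 and 774 CPM in S1, against 846, 745 and 776 CPM in C1, and 824, 905 and 771 CPM in S0, against 942, 888 and 950.2 CPM in C0. All 3 C1 libraries were below all 3 C0 libraries, S1 overlapped both C1 and S0, and the S1 minus C1 difference was 0.09 ± 0.18 (log2, SD, n = 3). With either other scaling every S1 library was above every C1 library, by 0.34 with TMM and 0.24 with DESeq2 factors. S1 was then below S0 in every library, at -0.18 and -0.24, where the difference by column sum was 0.0152. With TMM and DESeq2 factors its ratio was 1.65 and 1.55. By column sum the other 10 abundant transcripts of the chaperone list had ratios of up to 13.6, though 8 of the list were within the limits with either other scaling, HSP70 and HSC70-1 (Eucgr.J00023, 2.07) being the nearest by column sum and the HSP90 gene ATHSP90.1 (Eucgr.A02734) the farthest.

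**Figure D3:**
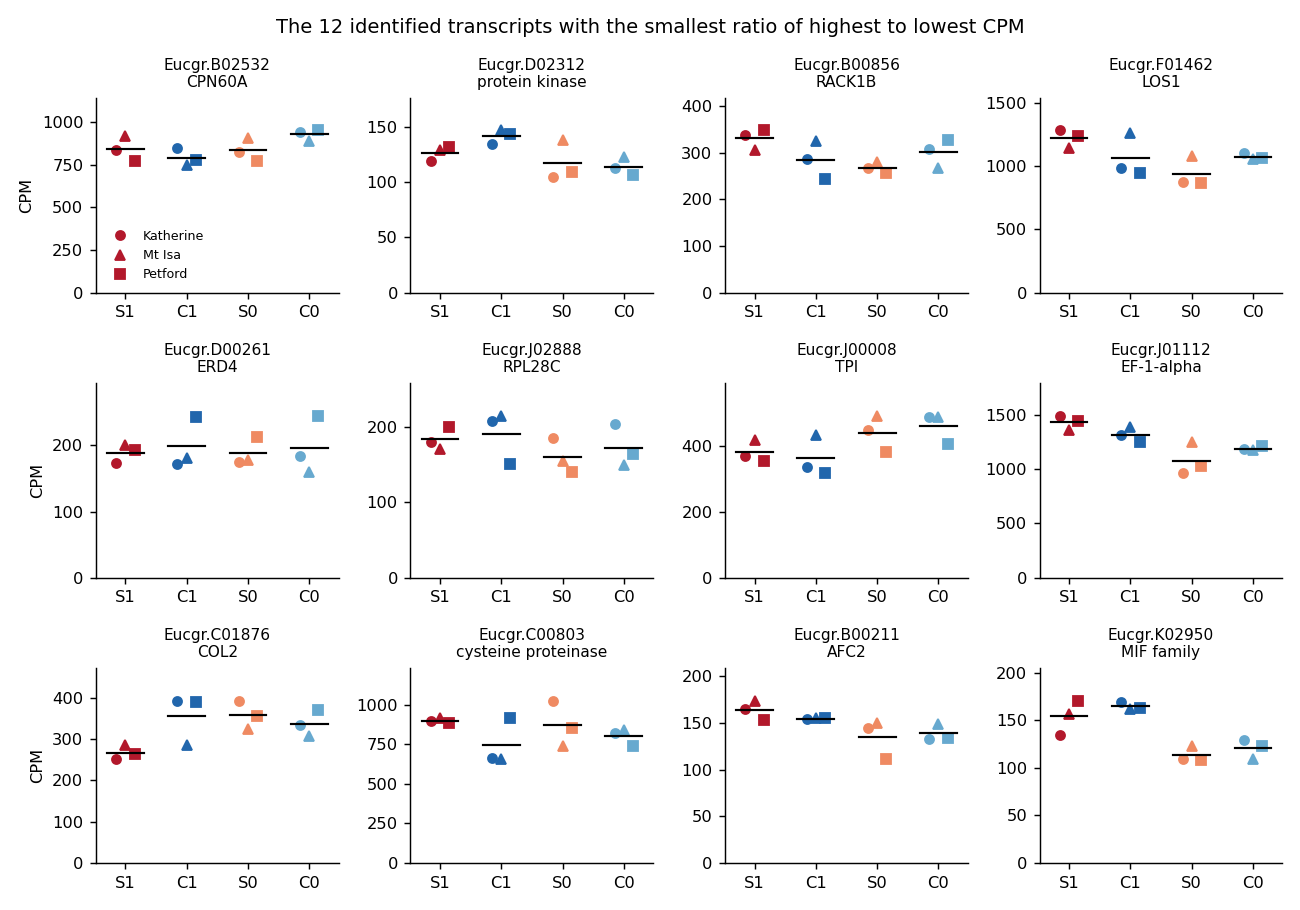
CPM (y axis, from 0) in S1, C1, S0 and C0 for the 12 named transcripts of smallest ratio; each symbol is the library of a population and each black line is the mean of 3 libraries. S1 lies wholly below C1 in 2 panels, Eucgr.D02312 and COL2, and the S1 and C1 libraries overlap in the other 10. Both separations are lost with TMM and DESeq2 factors. S1 is wholly above C1 with either for CPN60A, EF-1-alpha and AFC2, and with TMM factors only for RACK1B, LOS1, TPI and the cysteine proteinase.

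Protein breakdown was represented by a small group of peptidases. Eucgr.C00803 (scaffold_3:13222028-13225093), a putative cysteine proteinase, had 901, 917 and 887 CPM in S1, against 665, 657 and 916 CPM in C1, and 1027, 743 and 854 CPM in S0, against 824, 845 and 737 CPM in C0. The Katherine and Mt Isa libraries of C1 were the lowest, Petford C1 lay among the S1 libraries, its ratio was 1.56, and all S1 libraries were above all C0 libraries. With TMM factors S1 was above C1 in every library, by 0.54. TPP2 (Eucgr.A02778, scaffold_1:38265963-38286171), the giant peptidase that removes tripeptides from the ends of proteins, had 189.6, 195 and 179 CPM in S1, against 146, 176 and 141 CPM in C1, and 184, 196 and 143 CPM in S0, against 133, 214 and 177 CPM in C0. All S1 libraries were above all C1 libraries, by 0.29 ± 0.12 (log2, SD, n = 3), and the untreated C0 libraries alone spanned a wider range than S1 and C1 together. XBCP3 (Eucgr.D00484), a papain-type cysteine peptidase, was lower in every C1 library than in every C0 library, with a difference of -0.44 ± 0.18, and S1 and C1 overlapped. It had the largest ratio of the 45 under TMM scaling, 2.68, against 1.75 by column sum.

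Signalling genes were few. Eucgr.D02312 (scaffold_4:37050793-37052865), a protein kinase family member, had 119, 129 and 132 CPM in S1, against 134, 147 and 144 CPM in C1, and 105, 139 and 109 CPM in S0, against 113, 123 and 107 CPM in C0. Every C1 library was above every S1 and C0 library, S0 overlapped all groups, and the S1 minus C1 difference was -0.16 ± 0.03 (log2, SD, n = 3). That difference was 0.09 with TMM factors and -0.02 with DESeq2 factors, with the groups overlapping in both, as did C1 and C0. AFC2 (Eucgr.B00211, scaffold_2:3217205-3220632), a LAMMER-type kinase known to phosphorylate splicing factors, had 165, 174 and 154 CPM in S1, against 154, 155 and 155 CPM in C1, and 144, 149.7 and 111 CPM in S0, against 133, 149 and 134 CPM in C0. Its 3 C1 values lay within 154.0 to 155.4 CPM inside the S1 range, all S1 and C1 libraries were above those of S0 and C0, and Petford S0 was the lowest. With TMM and DESeq2 factors C1 and C0 overlapped (-0.11 and -0.08), S1 and S0 overlapped (0.10 and 0.03), and every S1 library was above every C1 library, by 0.33 and 0.23. RACK1B (Eucgr.B00856, scaffold_2:10389577-10392221) was in the kinase list by its name but is a scaffold protein bound to the small ribosomal subunit, and had 337, 306 and 347 CPM in S1, against 287, 324 and 243 CPM in C1, and 266, 281 and 256 CPM in S0, against 307, 266 and 327 CPM in C0. Its groups overlapped except that every S1 library was above every S0 library, by 0.30 ± 0.16. That separation was lost with TMM (0.11) and DESeq2 factors (0.05), and with TMM factors S1 was above C1 (0.47).

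Among metabolic enzymes, triosephosphate isomerase (TPI, Eucgr.J00008, scaffold_10:168841-176112), which interconverts the triose phosphates of glycolysis, had 371, 417 and 354 CPM in S1, against 337, 435 and 319 CPM in C1, and 449, 493 and 381 CPM in S0, against 488, 489 and 407 CPM in C0. Katherine and Petford C1 were the lowest, and all 4 groups overlapped. With either other scaling C1 was below C0 and S1 below S0 in every library, and with TMM factors S1 was above C1. A putative chloroplast NADP malate dehydrogenase (Eucgr.J01037, scaffold_10:11331519-11337567), which exports reducing power from the chloroplast, had 385, 402 and 478 CPM in S1, against 469.7, 577 and 482 CPM in C1, and 542, 545 and 465 CPM in S0, against 661, 688 and 630.0 CPM in C0. Its C0 libraries were above all others, with a C1 minus C0 difference of -0.38 ± 0.12, and S1 and C1 overlapped under all 3 scalings. A putative pyruvate kinase (Eucgr.J00327), the last enzyme of glycolysis, was higher in every C1 library than in every C0 library, by 0.64 ± 0.10, and this held under all 3 scalings.

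A carbohydrate kinase of the pfkB type (Eucgr.A02987, scaffold_1:40198734-40202867), a family of sugar kinases, had the largest S1 minus C1 difference among the named transcripts. It had 183, 193 and 182 CPM in S1, against 123, 121 and 105 CPM in C1, and 171, 165 and 155 CPM in S0, against 174, 179 and 158 CPM in C0. The 3 C1 libraries were the lowest of the 12 and the 3 S1 libraries the highest. S1 was above C1 by 0.68 ± 0.11 and C1 was below C0, with a difference of -0.55 ± 0.04 (log2, SD, n = 3), and both separations held under all 3 scalings. S1 and S0, apart by 0.18 by column sum, overlapped with TMM and DESeq2 factors. SAM-2 (Eucgr.A01021), an S-adenosylmethionine synthetase that makes the methyl donor of the cell, had an S1 minus C1 difference of 0.41 ± 0.24 with overlapping groups. By column sum it was the only one of 8 abundant one-carbon and amino acid transcripts within 2-fold, and its relative SAM1 (Eucgr.K00588) had a ratio of 6.98. SAM-2 was beyond the limit with TMM (2.25) and DESeq2 factors (2.05), where a different transcript was the 1 of that list within it.

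Among the 4 transcripts for membrane proteins the S1 minus C1 difference was positive in none by column sum and in 1 with either other scaling. PIP1B (Eucgr.J00237, scaffold_10:2447623-2449616), an aquaporin that passes water through the plasma membrane, had 436, 463 and 472 CPM in S1, against 642, 555 and 605 CPM in C1, and 623, 473 and 350.1 CPM in S0, against 536, 470.1 and 346 CPM in C0. Every S1 library was below every C1 library, with a difference of -0.39 ± 0.15 (log2, SD, n = 3), and the groups overlapped under TMM scaling. C1 was above C0 by column sum only. A second transcript named PIP1B, Eucgr.E00628, was beyond the limit with a ratio of 6.34. DUR3 (Eucgr.E01218, scaffold_5:13091590-13097575), known in Arabidopsis as a urea transporter, had 196, 212 and 213 CPM in S1, against 272, 324 and 300.4 CPM in C1, and 252, 224 and 231 CPM in S0, against 265, 261 and 246 CPM in C0. C1 was above every other group and S1 below every other group, at -0.53 ± 0.07 between them; S1 and C1, and S1 and S0, overlapped under TMM scaling. C1 minus C0 was 0.21 by column sum, -0.06 with TMM and -0.03 with DESeq2 factors, with overlap in both. ERD4 (Eucgr.D00261, scaffold_4:4146217-4152044), named in Arabidopsis for an early response to dehydration, had 173, 201 and 193 CPM in S1, against 172, 180.4 and 243 CPM in C1, and 174, 178 and 213 CPM in S0, against 183, 160.0 and 245 CPM in C0. Its groups all overlapped, its highest libraries were those of Petford in C1, S0 and C0, and its S1 minus C1 difference was -0.06 ± 0.25. The other 3 abundant transcripts of the water deficit list, among them RD22 (Eucgr.C02887, 3.77), were beyond the limit. The transporter gene ATMRP4 (Eucgr.K03470) had a ratio of 1.63, with S1 below C0 and overlapping C1.

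Genes of gene regulation were also found. COL2 (Eucgr.C01876, scaffold_3:32529047-32531011), a CONSTANS-like zinc finger transcription factor, had 252, 285 and 265 CPM in S1, against 392, 286 and 389.7 CPM in C1, and 393, 324 and 356 CPM in S0, against 335, 308 and 370.3 CPM in C0. The S1 libraries were the lowest 3, at -0.40 ± 0.34 relative to C1 and -0.42 ± 0.23 relative to S0 (log2, SD, n = 3), with Mt Isa S1 and C1 almost level. S1 stayed below S0 under all 3 scalings, whereas S1 and C1 overlapped with both other factors. MBD10 (Eucgr.C04235), a methyl-CpG-binding domain protein, was lower at the end of the experiment in watered and stressed seedlings alike: C1 minus C0 was -0.61 ± 0.18 and S1 minus S0 -0.50 ± 0.09, with every library lower, under all 3 scalings. ZLL, also called AGO10, which binds microRNAs that act in the shoot meristem, was higher at the end in every library, by 0.73 ± 0.19 for C1 over C0 and 0.72 ± 0.25 for S1 over S0. An AN1-type zinc finger gene (Eucgr.J00790) did the same, at 0.54 ± 0.05 and 0.75 ± 0.04, and both genes kept this order under all 3 scalings. BRM (Eucgr.D02305), a chromatin-remodelling ATPase, was above C1 in every S1 library by 0.19 ± 0.03, also under all 3 scalings.

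Several of the most abundant named transcripts have no assigned function. Eucgr.F01565 (scaffold_6:20024735-20028841), an unknown protein, had 1433, 1796 and 1387 CPM in S1, against 1566, 1454 and 1454 CPM in C1, and 987, 1189 and 927 CPM in S0, against 1024, 1146 and 1157 CPM in C0. Every library of the end of the experiment was above every library of its start, and S1 and C1 overlapped. C1 and C0 overlapped with TMM factors, and S1 was above C1 with TMM (0.28) and DESeq2 factors (0.18). Eucgr.B01216 (scaffold_2:19850396-19852290), likewise unknown, had 564, 610.2 and 486 CPM in S1, against 488, 436 and 513 CPM in C1, and 375, 399 and 331 CPM in S0, against 399, 367 and 387 CPM in C0. It showed the same order, with an S1 minus S0 difference of 0.59 ± 0.03 (log2, SD, n = 3). C1 minus C0 was 0.32 by column sum and overlapped with TMM (0.05) and DESeq2 factors (0.07), where S1 was above C1 by 0.45 and 0.35. Eucgr.B03593 (scaffold_2:60411832-60416725), annotated for ATP and protein binding only, had 735, 716 and 649 CPM in S1, against 909.7, 878 and 895 CPM in C1, and 768, 991 and 834 CPM in S0, against 1001, 1015 and 1124 CPM in C0. The 3 S1 libraries were the lowest of the 12 and the 3 C0 libraries the highest, and S1 and C1 overlapped under TMM scaling.

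Eucgr.K02950 (scaffold_11:37601409-37603459), of the macrophage migration inhibitory factor family, had 135, 157 and 171 CPM in S1, against 169.5, 163 and 163 CPM in C1, and 109, 124 and 109 CPM in S0, against 129, 109.9 and 123 CPM in C0, and its S1 and C1 libraries were all above those of S0 and C0, though S1 and S0 overlapped with DESeq2 factors. Eucgr.K01364 (scaffold_11:16734457-16737920), a membrane protein of unknown function, had 165, 194 and 178 CPM in S1, against 225, 259 and 229 CPM in C1, and 192, 193 and 132 CPM in S0, against 197, 199.9 and 221 CPM in C0. S1 was below C1 in every library, at -0.41 ± 0.04, and the groups overlapped under TMM scaling. C1 was above C0 by column sum only. Of the transcripts without a name, scaffold_4:35285073-35289283 had the smallest ratio (1.31), with 228, 206 and 215 CPM in S1, against 259.8, 252 and 235 CPM in C1, and 260.2, 242 and 199 CPM in S0, against 258, 245 and 244 CPM in C0. The S1 libraries were below all C1 libraries, which was lost with both other scalings, and Petford S0 was the lowest of all. Next came scaffold_6:34379005-34383172 (ratio 1.33), with 135, 129.7 and 136 CPM in S1, against 118, 130.4 and 146 CPM in C1, and 143, 129 and 132 CPM in S0, against 125, 137 and 109 CPM in C0. It had the smallest coefficient of variation of the 214, and all groups overlapped. The last, scaffold_7:45969248-45980293 (ratio 1.35), had 246, 264 and 249 CPM in S1, against 256, 255 and 270.2 CPM in C1, and 319.8, 328 and 272 CPM in S0, against 279, 332 and 313 CPM in C0. Its S1 and C1 libraries lay below the C0 libraries and all S0 libraries, and S1 below S0 and C1 below C0 held under all 3 scalings.

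For the question of the study, stressed against watered seedlings at the end, the 214 transcripts were divided almost evenly. The S1 minus C1 difference had a median of 0.03 (range -0.82 to 0.72, log2 CPM, mean of 3 populations), against -0.15 over 28296 transcripts with reads in all 6 libraries. It was positive in 112 of the 214, and in 108, 96 and 117 of them in Katherine, Mt Isa and Petford. Every S1 library was above every C1 library in 37 of the 214, beside 20.0% of all 38811 transcripts with at least 10 reads over the 6 libraries, and below in 43, beside 26.4%. Since the choice limited these same values, nothing is read from those shares. With TMM factors 89 were higher (background 25.0%) and 13 lower (22.5%), and with DESeq2 factors 74 were higher (23.0%) and 24 lower (24.1%). The medians were then 0.28 and 0.17 for the 214 and 0.09 and -0.01 for all transcripts, since a scaling factor moves every transcript of a library alike.

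Under all 3 scalings at once, 37 of the 214 were higher in S1 (20.0% of all transcripts) and 13 lower (22.4%). The named ones were 5 higher, namely the pfkB-type kinase, the initiation factor 4A, the second transcript of Eucgr.J01112, TPP2 and BRM, and 1 lower, UBQ6. Both other factors raised S1 minus C1, and all 37 transcripts higher by column sum stayed higher. Agreement of the scalings is therefore little check on a higher call, and nothing is read from 5 against 1.

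**Figure D4:**
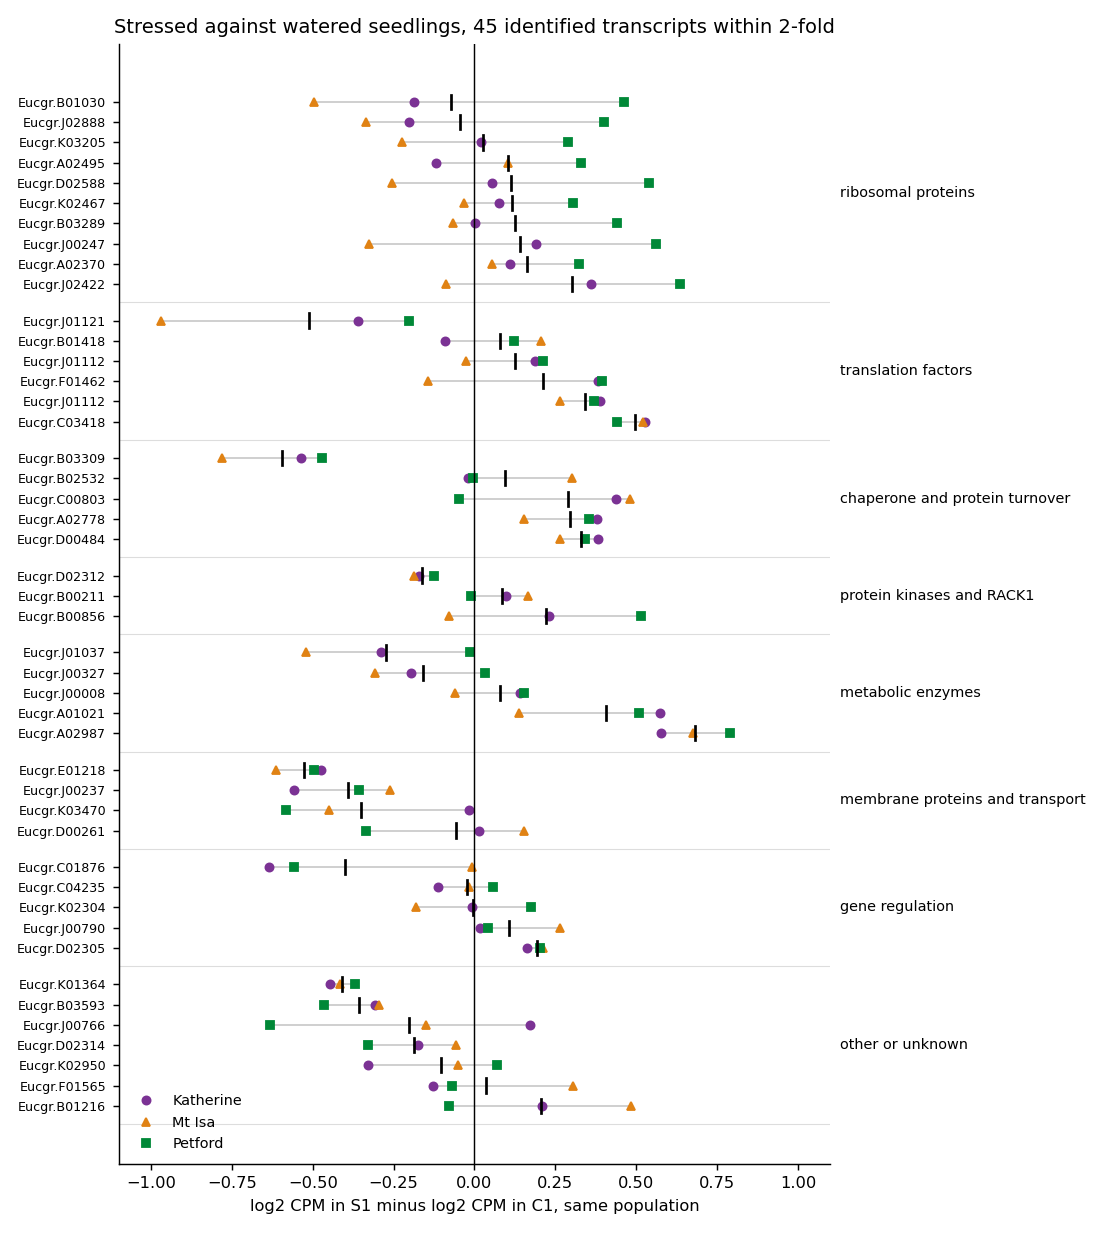
Difference of log2 CPM between S1 and C1 of the same population (x axis) for the 45 named transcripts (y axis), grouped by role; symbols are the populations and black bars their mean, and Eucgr.J01112 appears on 2 rows because it names 2 transcripts. In the ribosomal group all 10 Petford points lie right of 0 and 8 of 10 Mt Isa points lie left of it.

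Over time, the watered seedlings had a C1 minus C0 median of 0.10, positive in 146 of the 214, beside 0.31 over all transcripts. Every C1 library was above every C0 library in 60 (24.5% of all transcripts) and below in 28 (8.22%). This split turned round with the scaling: 10 higher (14.8%) and 75 lower (12.4%) with TMM factors, and 15 higher (15.7%) and 58 lower (11.9%) with DESeq2 factors. Under all 3, 9 were higher (14.7%), including ZLL, pyruvate kinase, the AN1-type gene and Eucgr.K02950, and 28 were lower (8.22%), including MBD10, the pfkB-type kinase, XBCP3, NADP malate dehydrogenase, CPN60A and Eucgr.B03593. Both other factors lowered C1 minus C0, and all 28 transcripts lower by column sum stayed lower. Agreement of the scalings is therefore little check on a lower call here.

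In the stressed seedlings the S1 minus S0 median was 0.23, positive in 156 of the 214, beside 0.25 over all transcripts. Every S1 library was above every S0 library in 87 (27.7% of all transcripts) and below in 27 (17.3%). With TMM factors 49 were higher (23.6%) and 44 lower (20.7%), and with DESeq2 factors 48 were higher (22.9%) and 57 lower (21.2%). Under all 3, 47 were higher (22.4%), 10 of them named, and 24 lower (17.0%), 4 of them named: MBD10, COL2, UBQ6 and Eucgr.B03593. The named ones higher in S1 were 3 ribosomal proteins (RPL21, RPS9C and BBC1), the initiation factor 4A, the second transcript of Eucgr.J01112, ZLL, the AN1-type gene, BRM, Eucgr.F01565 and Eucgr.B01216. Without the Petford S0 library the S1 minus S0 median was 0.15, with 148 positive, 87 higher (32.1%) and 38 lower (21.2%). S1 minus S0 and C1 minus C0 each follow the same seedlings, but the 2 sets of seedlings differ, and S1 and C1 were sampled 2 months later than S0 and C0.

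S0 and C0 were both untreated and came from different seedlings. The S0 minus C0 median was -0.13, positive in 40 of the 214, beside -0.14 over all transcripts. Every S0 library was above every C0 library in 1 of the 214 (2.90% of all transcripts) and below in 25 (7.70%), while Petford S0 was the lowest library for 85. With TMM factors 8 were higher (5.63%) and 6 lower (4.48%), with DESeq2 factors 9 higher (5.47%) and 7 lower (4.70%), and under all 3 scalings 0 higher (2.72%) and 4 lower (4.06%), none of them named. Without the Petford S0 library the S0 minus C0 median was -0.06, with 75 positive, 9 higher (8.38%) and 28 lower (11.3%).

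**Figure D5:**
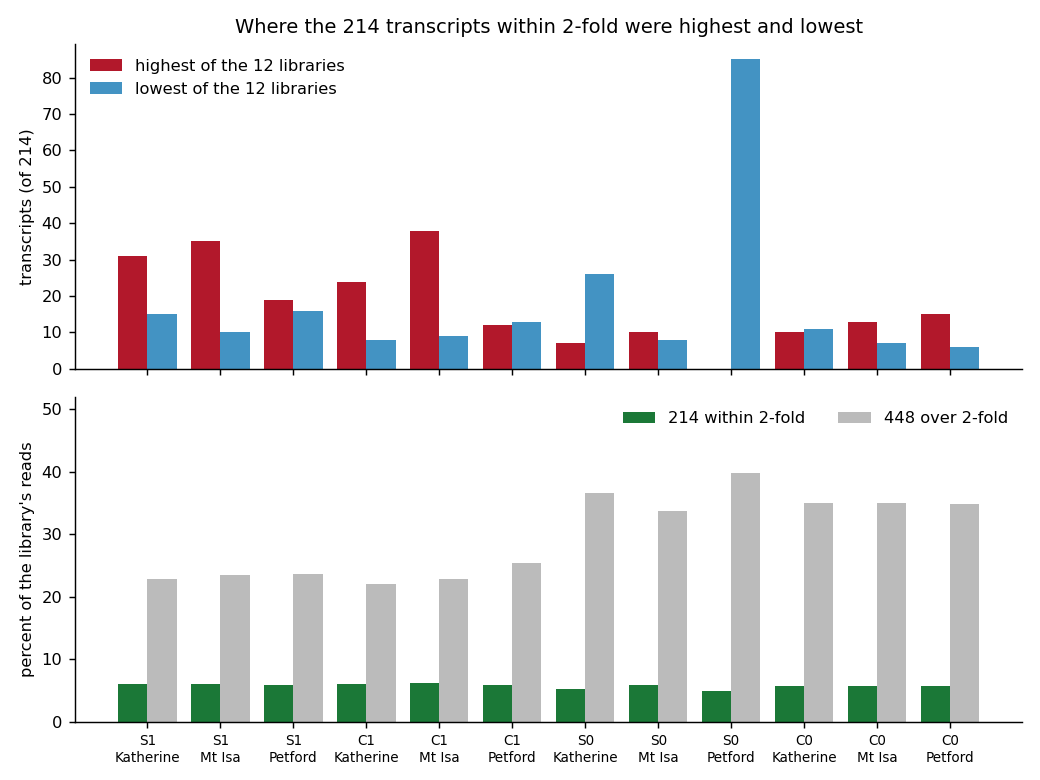
Upper panel, number of the 214 transcripts for which each library (x axis) was the highest (red) or the lowest (blue) of the 12. Lower panel, percent of the reads of each library in the 214 transcripts within 2-fold (green) and in the 448 abundant transcripts beyond it (grey). Petford S0 was the lowest library for 85 transcripts, and the 214 took 4.85 to 6.23% of the reads throughout.

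Together the 214 transcripts held 5.95 to 6.05% of the reads in S1, 5.88 to 6.23% in C1, 4.85 to 5.83% in S0 and 5.76 to 5.78% in C0. Their highest library was in S1 for 85 transcripts, in C1 for 74, in S0 for 17 and in C0 for 38. Their lowest was in S1 for 41, in C1 for 30, in S0 for 119 and in C0 for 24.

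How many transcripts the limits removed through each group was counted by column sum, leaving out 1 group at a time. Those that stayed were the same 214 each time. Each share below therefore restates the number removed and is no test on new libraries. Of 523 transcripts within 2-fold over C1, S0 and C0, 40.9% stayed within the limits once the S1 libraries were added. Of 350 chosen without C1, 61.1% did, of 348 chosen without S0, 61.5%, and of 230 chosen without C0, 93.0%. Leaving out a population in place of a group, 79.6% of 269 transcripts chosen without Katherine, 82.6% of 259 chosen without Mt Isa and 69.7% of 307 chosen without Petford stayed within the limits. The smallest share was that of the transcripts chosen without the stressed libraries, and the reason was not tested.

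The scaling also moved the edge of the set. With TMM factors 291 transcripts met both limits, 171 of them among the 214, and with DESeq2 factors 318 did, 180 of them among the 214. Under all 3 scalings 174 of the 214 stayed within 2-fold, 36 of the 45 named ones among them. Smallest over the 3 scalings was the highest ratio of scaffold_6:43210400-43213486, 1.39, followed by the kinase Eucgr.D02312 at 1.40. The first transcript of Eucgr.J01112 had ratios of 1.55, 1.45 and 1.35 by column sum, TMM and DESeq2. Of the named transcripts that left the limits under both, XBCP3 had ratios of 2.68 and 2.66 and the cysteine proteinase Eucgr.C00803 had 2.26 and 2.18. The others were SAM-2 (2.25 and 2.05), ATMRP4 (2.19 and 2.16), Eucgr.J00766 (2.18 and 2.16), the pfkB-type kinase (2.13 and 2.09) and PIP1B (2.12 and 2.08). MBD10 (2.04) and RPL35aC (2.06) left them with TMM factors only.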

How the data were processed

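Leaf RNA of 12 bulks was sequenced as single-end reads. Mapping by the authors used TopHat and Bowtie on the E. grandis draft genome, transcript models came from Cufflinks run over all reads together with no annotation supplied, and BEDTools gave the reads on each model; versions were not given in the sources used. The deposited values are raw counts. Of 43425 entries, 245 identical ones and 1633 sharing scaffold and start with another were dropped, and CPM used the sum of the rest as library total. Groups were called apart where their libraries did not overlap. Differences are means over 3 populations of log2 CPM, without pseudocount.

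TMM (edgeR 4.0.16) and DESeq2 1.42.0 size factors (R 4.3.3), other limits, and each library, group or population left out were alternatives. The code of the rule was run on simulated counts of an assumed fixed spread (Python 3.11.15), which checks the code and not the choice of transcripts. Members and gene lists were chosen with earlier results of these data known, and roles were grouped after the values were seen. Values in every library follow a rule: the 12 named transcripts of smallest ratio, the 10 of highest mean, the 4 largest and 4 smallest S1 minus C1 differences among those apart, and 3 without a name. Every abundant qPCR reference gene has its ratio. Values in every library of scaffold_10:12205956-12208849, and other genes named, were chosen after their values were seen. The authors' own fold changes and test results were not used, though the tables that gave the names were restricted by the authors' tests. The settings without the Petford S0 library for gene lists and for S0 were added after seeing the data.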

Additional observations from a re-analysis of the deposited data

Results flagged for a closer look

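In 3 of the 31 transcripts that the naming rule took from the 214, by column sum, all 3 populations moved one way over time in the watered seedlings and all 3 the opposite way in the stressed seedlings. This opposition was lost with TMM and DESeq2 factors in each of the 3. CPN60A (Eucgr.B02532) had a log2 S1 minus S0 difference of 0.0152 and a C1 minus C0 difference of -0.23 by column sum. S1 minus S0 was -0.18 with TMM and -0.24 with DESeq2 factors, every S1 library then being below every S0 library, as C1 was below C0. The pfkB-type carbohydrate kinase (Eucgr.A02987) had 0.18 for S1 minus S0 and -0.55 for C1 minus C0, and S1 minus S0 was -0.0055 with TMM and -0.07 with DESeq2 factors. DUR3 (Eucgr.E01218) had -0.18 for S1 minus S0 and 0.21 for C1 minus C0, and C1 minus C0 was -0.06 with TMM and -0.03 with DESeq2 factors. The difference between stressed and watered seedlings was not tested, since the transcripts were chosen on these libraries. Among all 214, 12 had such opposite signs by column sum: in 7 S1 was above S0 and C1 below C0, and in 5 the reverse.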

How the results depend on the processing

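The number of transcripts within the limits was 541 with a minimum of 50 CPM, 52 with 200 CPM and 1341 with only 10 reads required in every library; it was 21 with a ratio limit of 1.5, 447 with a limit of 3, and 482 when the ratio was taken over the 4 group means. It was 348, 350 and 523 without the groups S0, C1 and S1, and 216 to 276 with a single library left out, the most without Petford S0. The number with S1 and C1 apart, 80 in the full set, was 212, 18 and 459 under those CPM minima, 4 and 247 under those ratio limits, 228 for group means, 149 with TMM and 164 with DESeq2 factors, and 80 to 121 with a single library left out, 121 being without Mt Isa S1. The median S1 minus C1 difference was 0.22 with TMM and 0.16 with DESeq2 factors among the transcripts that each then chose, -0.0217 with 200 CPM, -0.0183 with 10 reads, 0.10 with a ratio limit of 3, and -0.0166 to 0.0505 with a single library left out, negative without Petford C1 and without Petford S1. Among the described transcripts with S1 and C1 apart, the difference changed sign with TMM factors in 2, Eucgr.D02312 (0.0868) and scaffold_4:35285073-35289283 (0.0444). The cause of these shifts beyond the changed limits and scaling was not tested. No paired test was run, because the transcripts were chosen on these same values. The differences themselves were taken within each population. The counting part of the spread, 4.56% at the median, is what depth limits.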
